A study of Mus musculus with 3 samples.

Results

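The transcriptome of ATRX-/- mouse embryonic stem cells (ESCs), pluripotent cells derived from the blastocyst, was compared with that of wildtype ESCs by sequencing polyadenylated RNA. Reads were summed over all transcripts that carry the same gene symbol, and a gene entered the comparison where its level reached 1 CPM (counts-per-million of the scaled library) in at least 1 of the 2 libraries. This held for 13230 of 24006 gene symbols. Reads on consensus sequences of repeats were taken apart from those on genes. At the edge of this limit, 14 reads in the ATRX-/- library stood for 1.01 CPM and 14 reads in the wildtype library for 0.964 CPM.

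The wildtype library came from clone WT26 and the ATRX-/- library from clone KO1-44. A DAXX-/- library, from clone KO2-3, is given beside them where its values bear on the comparison. All 3 clones were male, shared 1 isogenic C57BL/6x129sV background and were described as products of CRISPR targeting. They grew with serum and leukaemia inhibitory factor (LIF), and irradiated feeder cells had been removed by passage onto gelatin. Each genotype was 1 clone with 1 library, so a difference between genotypes cannot be told apart from one between clones, cultures or libraries. Genotypes could therefore not be tested, and no p-values are given.

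ATRX is a chromatin remodeller of the SNF2 family. With the histone chaperone DAXX it places the histone variant H3.3 at telomeres, pericentric heterochromatin, imprinted regions and endogenous retroviruses, where trimethylated lysine of histone H3 marks silent chromatin. Retroviruses of the intracisternal A particle (IAP) class, imprinted genes and repeat-rich DNA are therefore the sequences usually examined in cells without it.

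A gene was called higher or lower in ATRX-/- cells where the whole 95% counting interval of its fold lay beyond 2-fold. The interval, given in parentheses after each log2 fold, is an exact conditional binomial one. It reflects counting error alone and takes reads as independent, which copies made by PCR are not. By this rule 92 genes (0.695% of those tested) were higher and 152 (1.15%) were lower. The median log2 fold of all genes tested was 0.02, and 83.0% of them lay inside 1.5-fold. The genes nearest the limit were Syt13, higher with 38 reads in wildtype and 106 in ATRX-/-, and Mcam, left uncalled with 858 and 1776. On the lower side they were Myh3, called with 62 and 17 reads, and Nt5e, left uncalled with 45 and 11.

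**Figure D1:**
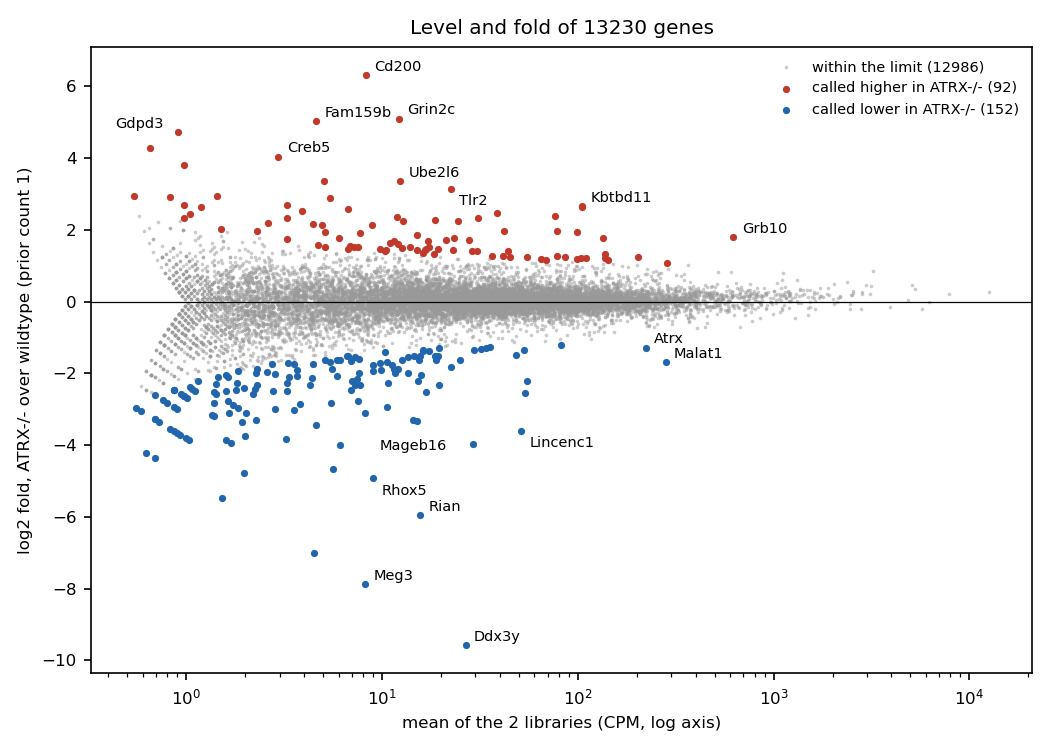
Each point is 1 of the 13230 genes tested, with the mean of the wildtype and ATRX-/- libraries in CPM on a log axis and the log2 fold of ATRX-/- over wildtype (a prior count of 1 added) on the other. The 92 genes called higher are red, the 152 called lower blue, and few genes of either kind lie at the right, where levels are high.

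The 2 libraries compared were of similar depth, with 13981915 reads on genes in wildtype and 13988376 in ATRX-/-. The DAXX-/- library was smaller, with 11224100. Read counts given in the text are not scaled, so an equal count stands for a higher level in DAXX-/-. Genes of chromosome 11 stood apart as a whole. Their median log2 fold was -0.21 over the 879 genes with a mean of at least 5 CPM, 77.4% of them below 0, while medians of the other autosomes lay between 0.01 and 0.09. All 13 windows of 10 Mb along chromosome 11 had a median below 0, from -0.35 to -0.10. The DAXX-/- library gave -0.22 against the same wildtype library, and ATRX-/- against DAXX-/- gave 0.00, so it was the wildtype library that differed from both others there. DNA copy number was not measured here. Chromosome 11 held 6 of the genes called higher (0.535% of its 1122 tested genes) and 21 of those called lower (1.87%). Over all genes tested the shares were 0.695% and 1.15%. Without chromosome 11, 86 higher and 131 lower genes remained.

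**Figure D2:**
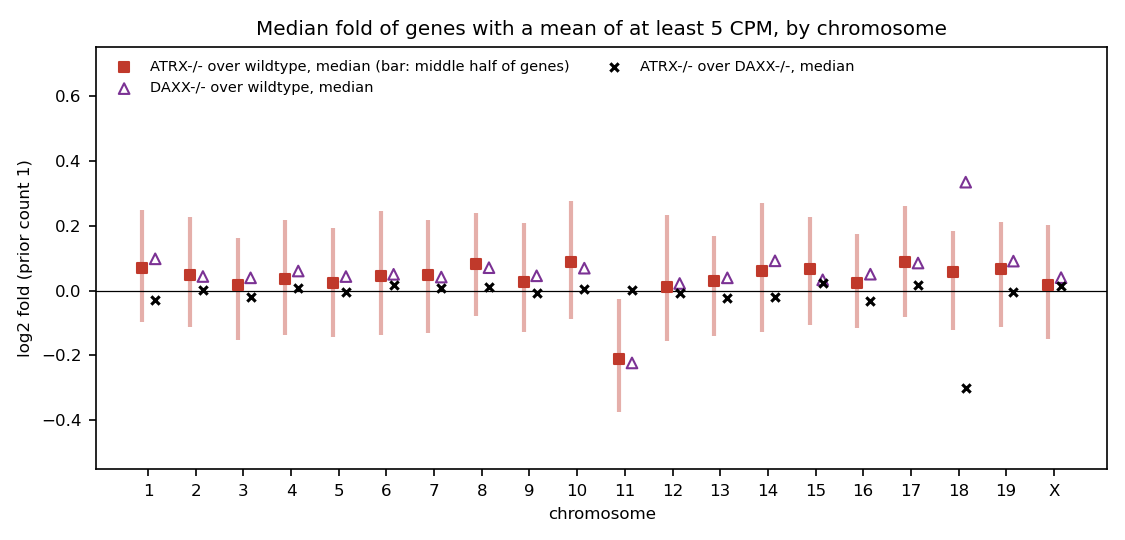
For each chromosome the red square is the median log2 fold of ATRX-/- over wildtype among genes with a mean of at least 5 CPM, and the bar spans their lower to upper quartile. Open triangles show DAXX-/- over wildtype and crosses ATRX-/- over DAXX-/-. Chromosome 11 is at -0.21 and -0.22 in the comparisons with wildtype and at 0.00 between the knockouts, and chromosome 18 stands apart in DAXX-/- only (0.33, against 0.06 in ATRX-/-).

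The labelled cell type was checked against marker genes. All 9 stem cell markers were tested and none was called, and their summed level was 5594 CPM in wildtype and 6037 CPM in ATRX-/-. With 1.84% of all genes tested called in either direction, none called of 9 does not set these markers apart. Pou5f1, which encodes the pluripotency factor OCT4, had 17316 reads in wildtype and 17781 in ATRX-/-, Nanog 5951 and 7540, and Sox2 4758 and 4703. The short marker sets of other cells were lower in sum, which did not hold for the longer endoderm and fibroblast lists described further on. The 8 primitive endoderm markers went from 269 to 142 CPM, 10 feeder fibroblast markers from 33.0 to 17.6 CPM and 7 trophoblast markers from 24.4 to 16.5 CPM. Of those tested, 3 of 8 endoderm markers, 1 of 6 fibroblast markers and 1 of 3 trophoblast markers were called lower, beside 1.15% of all genes. The trophoblast marker was Krt19 of chromosome 11, with 219 reads in wildtype and 79 in ATRX-/-, and the set as a whole did not follow it. Krt7 had 32 and 40 reads, Esx1 98 and 94, Hand1 5 and 2, and Cdx2, which stayed below 1 CPM, 0 and 13. Tpbpa and Elf5 had 0 in both. The fibroblast genes Dcn and Postn had 1 read each in wildtype and 0 in ATRX-/-, and Lum had 0 in both. In bulk RNA, fewer cells of a type and less RNA per cell cannot be told apart.

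The targeted gene was lower but present. Atrx, an X-linked gene, had 4582 reads in wildtype, 3576 in DAXX-/- and 1800 in ATRX-/-, a log2 fold of -1.28 (-1.36 to -1.20). Its longest transcript, of 10275 bases, went from 3433 to 1377 reads. All 12 of its listed transcripts had fewer reads in ATRX-/- than in wildtype, with log2 folds from -2.93 to -0.72. Reads over transcripts do not show where the CRISPR change lies or how much protein is left. Daxx had 1125 reads in wildtype and 972 in ATRX-/-, at -0.14 (-0.27 to -0.02).

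No gene was called in the lists of ATRX partners and of retroelement silencing factors. Over all genes tested 1.84% were called in either direction, so lists of this size can hold 0 without standing apart. Of 25 tested H3.3 chaperones, heterochromatin proteins and other partners of ATRX, 0 were called in either direction and the median log2 fold was 0.05. The H3.3 genes H3f3a and H3f3b gave 0.20 and -0.37, and Pml, which encodes the organiser of the nuclear bodies that hold ATRX and DAXX, gave 0.49. Of 28 retroelement silencing factors 0 were called and the median was 0.06. Both medians fell below 0 when libraries were scaled by total counts, and that of the partners also with chromosome medians subtracted. Trim28, the corepressor that zinc finger proteins bring to retroviruses, had 24359 reads in wildtype and 18023 in ATRX-/-. Atf7ip, a partner of the histone methyltransferase SETDB1, had 1207 and 2188. Among 21 genes of DNA methylation 1 was called lower (4.76%, against 1.15% of all genes). It was Dppa3, which protects methylation in the zygote, with 123 reads in wildtype, 60 in DAXX-/- and 10 in ATRX-/-. The methyltransferase Dnmt3b and its cofactor Dnmt3l were at -1.08 and -1.07, short of the limit.

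The genes that rose furthest were nearly silent in wildtype cells. Cd200, which encodes a surface glycoprotein that restrains myeloid cells, had 2 reads in wildtype, 62 in DAXX-/- and 227 in ATRX-/-. Its log2 fold of 6.89 (5.03 to 9.95) was the largest among the 25 higher genes named by rule, those with 0 reads in wildtype left aside. Grin2c, which encodes an NMDA receptor subunit, had 9, 359 and 328 reads in the same order. Creb5, a transcription factor of the CREB family, had 4 reads in wildtype, 2 in DAXX-/- and 78 in ATRX-/-, and it was high in the ATRX-/- library alone. Sox10, a transcription factor of neural crest, went from 1 to 26 reads, a log2 fold of 4.77 (2.16 to 10.13). Samd5 had 0 reads in wildtype and 18 in ATRX-/-, at least 6.29-fold higher when a count of 0 is set at a floor of 3 reads. The phosphodiesterase gene Gdpd3, with 0 and 25 reads, was at least 8.74-fold higher on the same floor.

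Other higher genes had substantial levels in wildtype. Grb10, an imprinted gene for an adaptor that restrains growth signalling, had 4055 reads in wildtype, 7800 in DAXX-/- and 13369 in ATRX-/-. Kbtbd11 had 415, 2184 and 2516 reads, and Epha4, a receptor for ephrins, had 420, 1786 and 2495. Eps8, which caps and bundles actin, had 355, 801 and 1766. Car2, which encodes carbonic anhydrase, went from 456 to 1723 reads in ATRX-/- and Dclk2, a microtubule-associated kinase, from 599 to 2180. Levels of these 6 genes in DAXX-/- lay above wildtype as well. Fmn2, a formin that nucleates actin, had 148, 468 and 714 reads, and the Wnt antagonist Sfrp2 had 124, 383 and 562. The transcription factors Bcl11a and Pou4f2 went from 27 to 160 and from 92 to 430 reads, and DAXX-/- had 157 and 457.

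**Figure D3:**
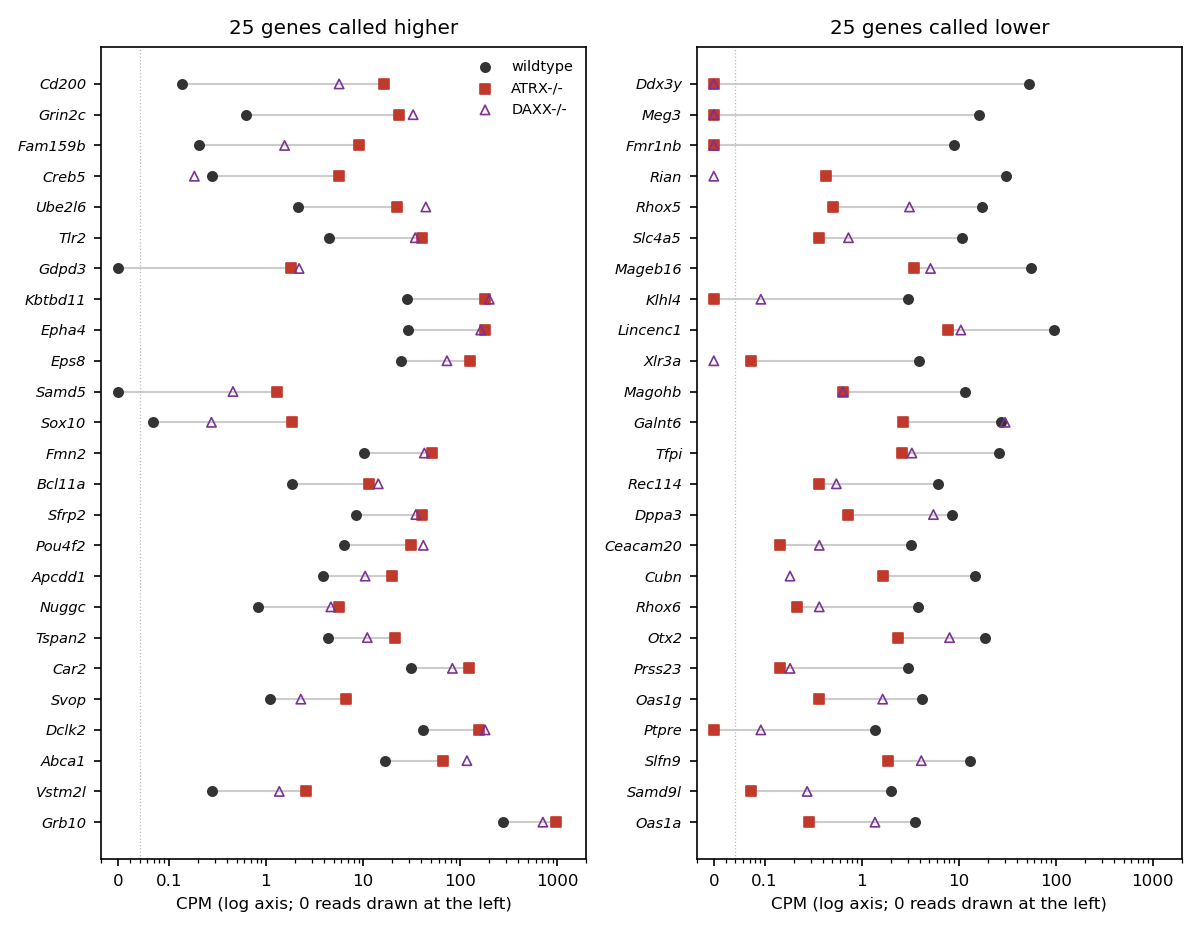
The 25 higher and 25 lower genes named by rule are shown with their level in CPM on a log axis. Circles are wildtype, squares ATRX-/- and open triangles DAXX-/-, with 0 reads drawn at the left edge. Triangles lie near the squares for most genes, and Creb5, Galnt6 and Dppa3 are among those whose triangle lies nearer to the wildtype circle.

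Among the genes that fell furthest, several lost all reads. Meg3, a maternally expressed noncoding RNA of the imprinted Dlk1 domain, had 237 reads in wildtype and 0 in both knockouts, which is at least 75.4-fold lower in ATRX-/-. Rian, a second noncoding RNA of that domain, had 448 reads in wildtype, 0 in DAXX-/- and 6 in ATRX-/-. The protein-coding genes of the same domain were low in both libraries, with 27 and 37 reads for Dlk1 and 13 and 17 for Dio3. Ddx3y, a Y-linked RNA helicase, had 775 reads in wildtype and 0 in both knockouts, at least 246-fold lower in ATRX-/-, whereas Eif2s3y of the same chromosome had 768 reads in wildtype, 32 in DAXX-/- and 705 in ATRX-/-. Klhl4 and Ptpre went from 44 and 20 reads to 0 in ATRX-/-. In all, 6 genes called lower had 0 reads in ATRX-/-, and 40 of the 152 kept under 10% of their wildtype level.

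Several of the lower genes belong to the germ line or to the X chromosome. Mageb16, a cancer-testis gene, had 800 reads in wildtype, 56 in DAXX-/- and 48 in ATRX-/-. Rec114, which is needed for meiotic DNA breaks, had 88, 6 and 5. Magohb, a component of the exon junction complex, had 167, 7 and 9, and Slc4a5, a bicarbonate transporter, had 157, 8 and 5. Tfpi, the inhibitor of the tissue factor pathway of clotting, had 381, 36 and 36 reads. In these 5 genes both knockout libraries lay far below wildtype and close to each other. Galnt6, a glycosyltransferase gene, differed from them, with 399 reads in wildtype, 329 in DAXX-/- and 37 in ATRX-/-. Otx2, a transcription factor of primed epiblast, had 273, 88 and 33 reads.

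The comparisons of ATRX-/- and DAXX-/- with wildtype share the wildtype library, so likeness between them is no independent result. DAXX-/- had 0.487% of 13151 tested genes higher and 1.55% lower. Of the 92 genes higher in ATRX-/-, DAXX-/- had 31 called higher, 0 lower and 54 neither, and 7 were not tested there. Their median log2 folds were 1.77 in ATRX-/- and 1.11 in DAXX-/-. Of the 152 lower genes, 78 were lower in DAXX-/-, 73 were neither and 1, Nkx6-3, was higher. Their median log2 folds were -2.33 in ATRX-/- and -1.996 in DAXX-/-.

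Called genes in both directions had low levels in wildtype, with medians of 6.10 CPM for higher and 7.03 CPM for lower genes against 23.9 CPM for all tested genes. In ATRX-/- the medians were 22.3 CPM for higher and 1.08 CPM for lower genes against 24.2 CPM. Both levels enter the call, so these medians are in part set by the rule. Of the 92 higher genes, 19 were under 1 CPM in wildtype and entered through ATRX-/- alone. The mean of both libraries, which a fall itself lowers, was used to group genes by level. Among the 1341 genes with a mean under 2 CPM, 52 were lower, 11 were higher and the median log2 fold was -0.23. Among the 2219 genes with a mean of at least 100 CPM, 2 were lower and 11 higher, with a median of 0.05. These 2 abundant lower genes were Atrx and Malat1. Malat1, an abundant noncoding RNA of nuclear speckles, had 6209 reads in wildtype, 2742 in DAXX-/- and 1851 in ATRX-/-, at -1.68 (-1.75 to -1.60). The neighbouring nuclear RNA Neat1 had 329 and 510 reads in wildtype and ATRX-/-, at 0.70. Folds also moved with base composition, and its part in single results was not tested. The median went from -0.05 in the fifth of genes whose most-read transcript had the least GC to 0.11 in the fifth with the most, against -0.00 and 0.03 in DAXX-/-.

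The X chromosome held 14 of the lower genes and 0 of the higher ones among 442 tested, 3.17% against 1.15% over all chromosomes. The 14 include Atrx, the targeted gene, and the 7 lower genes of the X-linked list described next. The median log2 fold over X-linked genes with a mean of at least 5 CPM was 0.02. Of 10 tested X-linked homeobox and cancer-testis genes, 7 were lower and 0 higher, with a median of -3.73. The list had 40 members among the gene symbols, and those not tested stayed below 1 CPM in both libraries. Most tested members reached 1 CPM in wildtype alone. The filter therefore in part set the share of lower genes, the lack of higher ones and the median. The homeobox gene Rhox5 had 253 reads in wildtype, 34 in DAXX-/- and 7 in ATRX-/-. Rhox6 had 55, 4 and 3 in the same order, and Rhox9 had 44, 4 and 4. Rhox5, Rhox6 and Rhox9 were neighbours, with 3 of 3 tested genes lower between 37804842 and 37901770 of the X chromosome (build GRCm38). Xlr3a went from 56 reads to 1 and Usp26, a deubiquitinase gene of the testis, from 26 to 1. Rhox and Xlr genes have near-identical copies that can exchange reads, so values of single members are uncertain. The 3 tested members that were not called, Rhox10, Rhox13 and Tktl1, had 16 to 24 reads in wildtype and 3 to 10 in ATRX-/-.

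Some germ cell genes were lower as well. Of 46 tested germ cell, meiosis and piRNA genes 6 were lower and 0 higher, with a median of -0.53 and 34 of 46 below 0. The shares of all genes tested were 1.15% lower and 0.695% higher, so 0 higher of 46 does not set the list apart. Dazl, which controls translation in germ cells, had 104 reads in wildtype, 17 in DAXX-/- and 19 in ATRX-/-. Piwil2, which binds piRNAs, had 1112, 333 and 416, and Tex19.1, which restrains retrotransposons, had 1036, 221 and 355. The meiotic genes Tex11 and Zcwpw1 were at -1.19 and -1.03, inside the limit. Genes of the list that were not lower included the germ cell receptor Kit, with 1378 and 1426 reads, and Stra8, a retinoic acid target at the start of meiosis, with 423 and 382. Tex19.1 and Hormad2 lie on chromosome 11, and both were also called with the median of each chromosome subtracted.

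Called genes lay beside each other more often than tested genes as a whole. The next tested gene on the chromosome was called the same way for 11 of the 92 higher genes and for 24 of the 152 lower genes. Over all tested genes such a neighbour was found for 1.36% and 2.23%. The higher count includes Gm21967 and Gm7120, which are 1 locus under 2 symbols, and with 1 symbol kept for each gene identifier it was 9 of 91. Without Rhox, Xlr and Oas1 genes, whose copies can exchange reads, the lower count was 17 of 146, or 11.6% against 2.15% of all tested genes. Beside the Rhox genes, 3 of 3 tested genes were lower on chromosome 11 at 100140810 to 100261029, where the keratin genes Krt19, Krt16 and Krt17 went from 219, 22 and 234 reads to 79, 3 and 69. Krt19 was not called once the median of the chromosome was subtracted, nor with a 99% interval. A looser run lay at 3983636 to 4441105 of chromosome 11, where 3 of 11 tested genes were lower, Gal3st1, Gatsl3 and Hormad2. The run of higher genes was on chromosome 13, at 104631140 to 104863893, where 3 of 3 were called. Cwc27, a cyclophilin of the spliceosome, had 572 reads in wildtype, 651 in DAXX-/- and 1255 in ATRX-/-. Srek1ip1, a splicing regulator, had 242, 339 and 612, and Fam159b had 3, 17 and 125. Cwc27 and Srek1ip1 start back to back on opposite strands in RefSeq, where their promoter windows share 284 bases, whereas the GENCODE start of Srek1ip1 lies 24686 bases away from the RefSeq one, inside Cwc27.

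Promoters of genes in this run and of genes at the far ends of the range show how differently their start sites are built. They are taken from RefSeq (build GRCm38.p6), run from 250 bases before to 50 bases after the start, and are printed 5′ to 3′ on the strand of the gene with each CG dinucleotide in capitals. Over all 32851 windows of that table the median number of CG was 7, with at least 15 in 34.6% and at most 5 in 43.6%. CG is the same on both strands. Fam159b (chr13:104863844-104864143, minus strand) has 8 and Cwc27 (chr13:104816904-104817203, minus strand) has 21. Cd200 (chr16:45409004-45409303, minus strand) has 8 and Grin2c (chr11:115267194-115267493, minus strand) has 22. Of the lower genes, Fmr1nb (chrX:68761589-68761888, plus strand) has 9, Mageb16 (chrX:79671386-79671685, minus strand) has 6 and Meg3 (chr12:109540746-109541045, plus strand) has 13.
Fam159b: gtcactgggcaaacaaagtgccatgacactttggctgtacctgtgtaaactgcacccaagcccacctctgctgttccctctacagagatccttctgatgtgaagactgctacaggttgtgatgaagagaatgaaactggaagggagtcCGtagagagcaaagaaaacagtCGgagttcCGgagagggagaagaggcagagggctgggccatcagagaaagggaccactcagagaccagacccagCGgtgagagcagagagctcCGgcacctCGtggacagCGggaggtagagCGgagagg
Cwc27: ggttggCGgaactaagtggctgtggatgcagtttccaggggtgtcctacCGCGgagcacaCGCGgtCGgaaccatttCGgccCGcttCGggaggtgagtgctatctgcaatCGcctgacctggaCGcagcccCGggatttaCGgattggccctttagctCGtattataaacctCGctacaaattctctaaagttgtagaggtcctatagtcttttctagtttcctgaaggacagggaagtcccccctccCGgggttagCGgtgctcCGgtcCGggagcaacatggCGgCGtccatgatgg
Cd200: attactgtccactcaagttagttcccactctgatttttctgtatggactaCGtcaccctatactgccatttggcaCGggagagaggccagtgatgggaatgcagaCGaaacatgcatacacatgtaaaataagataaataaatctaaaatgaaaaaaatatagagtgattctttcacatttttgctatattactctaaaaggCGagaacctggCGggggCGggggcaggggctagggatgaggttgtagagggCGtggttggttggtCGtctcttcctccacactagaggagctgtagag
Grin2c: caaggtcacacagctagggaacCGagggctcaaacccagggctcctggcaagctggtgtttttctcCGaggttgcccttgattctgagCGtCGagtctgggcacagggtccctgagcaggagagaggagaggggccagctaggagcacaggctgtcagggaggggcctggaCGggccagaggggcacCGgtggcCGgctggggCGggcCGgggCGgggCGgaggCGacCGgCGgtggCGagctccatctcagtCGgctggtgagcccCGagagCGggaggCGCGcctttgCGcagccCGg
Fmr1nb: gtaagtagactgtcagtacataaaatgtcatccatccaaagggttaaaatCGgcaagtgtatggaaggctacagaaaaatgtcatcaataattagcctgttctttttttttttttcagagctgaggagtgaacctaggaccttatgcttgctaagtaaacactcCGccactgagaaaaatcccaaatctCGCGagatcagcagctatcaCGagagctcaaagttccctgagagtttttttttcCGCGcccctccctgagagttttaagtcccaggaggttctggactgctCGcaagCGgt
Mageb16: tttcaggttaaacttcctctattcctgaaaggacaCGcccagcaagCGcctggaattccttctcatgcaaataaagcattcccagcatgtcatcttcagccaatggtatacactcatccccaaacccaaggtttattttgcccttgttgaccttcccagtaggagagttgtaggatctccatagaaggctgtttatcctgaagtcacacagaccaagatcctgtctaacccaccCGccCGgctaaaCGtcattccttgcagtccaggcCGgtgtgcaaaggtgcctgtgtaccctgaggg
Meg3: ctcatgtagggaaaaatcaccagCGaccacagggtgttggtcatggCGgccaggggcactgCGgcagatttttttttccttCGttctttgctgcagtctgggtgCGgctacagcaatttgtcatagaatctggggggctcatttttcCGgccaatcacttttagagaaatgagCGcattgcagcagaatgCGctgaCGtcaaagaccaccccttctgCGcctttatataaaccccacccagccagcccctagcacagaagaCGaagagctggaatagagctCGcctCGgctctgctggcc

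A comparison of promoters over all called genes is void, because windows matched 64.1% of higher, 78.9% of lower and 79.0% of all tested genes.

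Imprinted genes moved in both directions. Of 23 tested genes named as paternally expressed 1 was higher (4.35%) and 2 lower (8.70%), with a median of -0.08. Of 23 named as maternally expressed 2 were higher (8.70%) and 2 lower (8.70%), also with a median of -0.08. Over all genes tested 0.695% were higher and 1.15% lower. Nnat, a membrane proteolipid of neurons, had 26 reads in wildtype, 60 in DAXX-/- and 112 in ATRX-/-. Cdkn1c, a cell cycle inhibitor, had 152, 107 and 363, and it fell short of the limit when libraries were scaled by total counts. Sfmbt2, a Polycomb group gene, had 188, 65 and 35 reads, and Usp29 had 35, 20 and 6. Genes near the median included Igf2r, with 1835 reads in wildtype and 1661 in ATRX-/-, and Impact, with 685 and 681. The counts hold no information on which parental allele was read.

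ATF4 is the transcription factor that raises amino acid synthesis, transport and tRNA charging under amino acid shortage. Of its 43 response genes, all of them tested, 39 had a log2 fold below 0. The median was -0.48, against 0.02 over all genes and 0.09 for the same list in DAXX-/-. Of its members 3 were lower (6.98%, against 1.15% of all genes) and 0 higher. Chac1, which degrades glutathione, had 271 reads in wildtype, 273 in DAXX-/- and 64 in ATRX-/-, and the pseudokinase gene Trib3 had 666, 548 and 253. Nupr1, a stress-induced chromatin protein, had 339, 253 and 124. The ATRX-/- library was the lowest of the 3 for each of these genes. Atf4 itself had 4131 reads in wildtype and 2477 in ATRX-/-, at -0.67. The serine synthesis gene Psat1 gave -0.61, asparagine synthetase (Asns) -0.47, and the tRNA synthetase genes Sars, Nars and Aars -0.67, -0.55 and -0.55. The member farthest above 0 was Ddit4, at 0.63, which is also a p53 target.

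Targets of p53, the transcription factor of the DNA damage response, lay on the other side. Of 28 tested, 2 were higher (7.14%, against 0.695% of all genes) and 0 lower, 25 had a log2 fold above 0, and the median was 0.49. Pmaip1, which encodes the proapoptotic protein NOXA, had 1205 reads in wildtype, 1011 in DAXX-/- and 2649 in ATRX-/-. Plk2, a stress-induced kinase, had 312, 174 and 717. Cdkn1a, the cell cycle inhibitor p21, was at 1.08 with 545 and 1101 reads, and Mdm2, which degrades p53, was at 0.49, both short of the limit. Trp53 itself gave 0.01.

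Immediate early genes, which respond within minutes to growth factors and stress, had 3 of 23 tested members higher, 0 lower and a median of 0.33. Beside them, 0.695% of all genes tested were higher and 1.15% lower, so 0 lower of 23 does not set the list apart. Egr1 had 346 reads in wildtype, 123 in DAXX-/- and 885 in ATRX-/-, so the knockouts lay on opposite sides of wildtype. Fos had 150, 92 and 394 reads, and Zfp36, which destabilises cytokine messages, had 129, 150 and 337. Myc, by contrast, had 482 reads in wildtype and 330 in ATRX-/-.

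Most metabolic lists had medians slightly above 0 and few called members, beside 0.695% of all genes tested called higher and 1.15% lower. Of 41 tested glycolysis and hypoxia genes 33 were above 0, with a median of 0.32, 0 called and -0.06 in DAXX-/-. Gapdh had 66621 reads in wildtype and 81966 in ATRX-/-, Ldha 12698 and 18273, and Pfkl, the liver phosphofructokinase, 2289 and 4069. Of 30 cholesterol genes 29 were above 0, with a median of 0.31 and 2 higher (6.67%). Those 2 were Abca1, the cholesterol exporter, with 247 reads in wildtype, 1286 in DAXX-/- and 921 in ATRX-/-, and the lipoprotein gene Apoe, with 2659, 2590 and 5382. Apoe was not called when libraries were scaled by total counts. Of 35 lysosome and autophagy genes 27 were above 0, with a median of 0.23 and 0 called. Cathepsin L (Ctsl) had 1572 and 2363 reads, and the autophagosome gene Map1lc3b had 1592 and 2440. All 86 ribosomal protein genes were tested, with a median of 0.17 and 1 lower (1.16%), the testis copy Rpl10l. The 80 nuclear genes of respiratory complexes had a median of 0.11. Among 77 mitochondrial ribosomal protein genes 53 were below 0, with a median of -0.10.

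Guidance and signalling lists held few called members, though some shares exceeded the 0.695% higher and 1.15% lower of all genes tested. Of 41 tested Eph receptors, ephrins, semaphorins and plexins 32 were above 0, with a median of 0.30, and only Epha4 was higher (2.44%). The semaphorin receptor Nrp2 had 550 reads in wildtype, 125 in DAXX-/- and 171 in ATRX-/-, and its ligand gene Sema3c had 26, 1 and 4. Both were lower. Of 31 Nodal and BMP genes 2 were higher (6.45%) and 0 lower, with a median of 0.16. The ligand Bmp7 had 117 reads in wildtype, 91 in DAXX-/- and 363 in ATRX-/-, and Lefty1, an inhibitor that Nodal induces, had 736, 547 and 1667. Lefty2, with 831 and 1432 reads, was at 0.85. In the Notch pathway 0 of 18 were called and the median was 0.24, with the receptor Notch3 at 1.02. Core and naive pluripotency genes had 0 of 33 called and a median of -0.08. With 1.84% of all genes tested called, 0 in lists of 18 and 33 genes does not set these lists apart. Klf4 was at 0.61 and Tet1 at -0.71.

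Interferon response genes held called members on both sides. Of 39 tested, 2 were higher (5.13%, against 0.695% of all genes) and 5 lower (12.8%, against 1.15%), and the median was -0.16. Ube2l6, which encodes the enzyme that carries ISG15 to its targets, had 31 reads in wildtype, 485 in DAXX-/- and 313 in ATRX-/-, and Tlr2, a receptor for bacterial lipoproteins, had 65, 377 and 558. Gbp2, an interferon-induced GTPase, had 98, 0 and 12, and the double-stranded RNA receptor Tlr3 had 28, 3 and 5. Oas1a and Oas1g, near-identical synthetases of the RNase L pathway that can exchange reads, had 52 and 61 reads in wildtype and 4 and 5 in ATRX-/-. The receptor gene Ifnar1, at 0.02, and the interferon regulatory factor gene Irf9, at -0.10, were not called. Isg15 itself, with 3 reads in wildtype and 0 in ATRX-/-, did not reach 1 CPM.

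In the longer lists of endoderm, fibroblast, trophoblast and neural progenitor genes, called members were lower apart from Apoe. Of 25 endoderm genes 4 were lower (16%, against 1.15% of all genes) and 1, Apoe, was higher (4%, against 0.695%). Their median was -0.76, and -1.45 in DAXX-/-. Cubn, the endocytic receptor cubilin, had 213 reads in wildtype, 2 in DAXX-/- and 23 in ATRX-/-. Lama1, a laminin chain, had 1661, 457 and 680, and Srgn, a proteoglycan, had 45, 0 and 7. ATRX-/- lay between wildtype and DAXX-/- in each. Of 14 fibroblast genes 2 were lower (14.3%), Acta2 and Thbs1, with a median of -0.73. Of 15 trophoblast genes 3 were lower (20%), with a median of -0.31, and 5 of the 15 lay above 0. Those 3 were Rhox6 and Rhox9, already counted in the X-linked list, and Krt19, which was not called with the chromosome median subtracted. Neural progenitor genes had 1 of 14 lower (7.14%), Otx2, and a median of -0.47. However, Sox1 was at 1.04 with 289 and 567 reads and Sox3 had 18 and 52. The summed levels of these longer lists did not follow their medians, at 1905 CPM in wildtype and 1922 CPM in ATRX-/- for endoderm and at 1379 and 1688 CPM for fibroblasts. Their most-read members were not called, with Lamc1, a laminin chain, at 10432 and 11457 reads and Fn1, which encodes fibronectin, at 18917 and 22730. The part of such cells in other called genes was not tested.

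**Figure D4:**
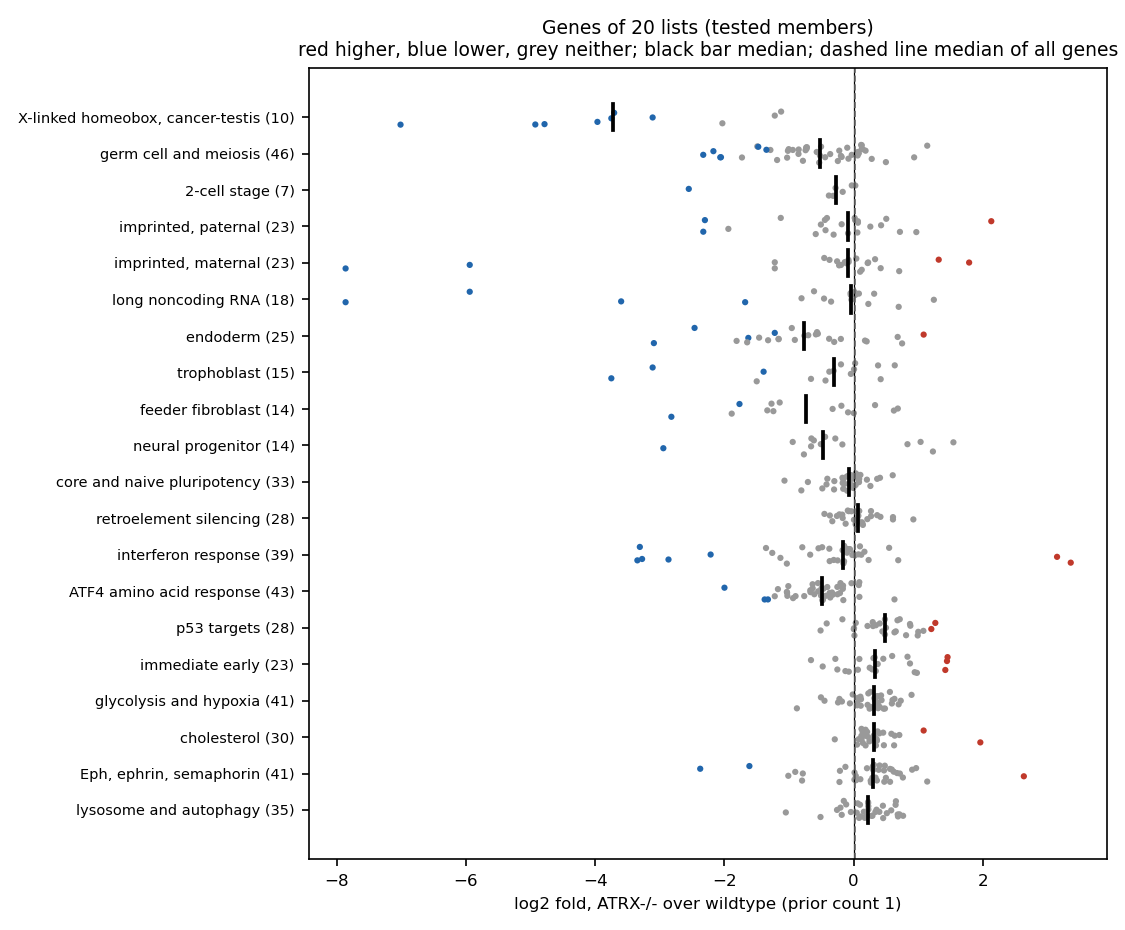
Each point is a tested gene of 1 of 20 lists, placed by its log2 fold of ATRX-/- over wildtype with a prior count of 1. Red points were called higher and blue lower, black bars are list medians and the dashed line is the median of all genes (0.02). The X-linked list lies farthest to the left (-3.73), the ATF4 list has its median at -0.48 and the p53 list at 0.49. Most tested members of the X-linked list reached 1 CPM in wildtype alone.

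Some lower genes with high counts belonged to none of the lists and are named after their values were seen. Ttn, the giant muscle protein titin, had 417 reads in wildtype, 590 in DAXX-/- and 69 in ATRX-/-. Shcbp1, a spindle-associated protein, had 1318, 51 and 272, and Igfbp3, which binds insulin-like growth factors, had 471, 68 and 89. Mapt, the microtubule protein tau, had 725, 423 and 288. Among higher genes of this kind, Lpcat1, an enzyme of phospholipid remodelling, had 880, 1164 and 2902, and the membrane protease gene St14 had 873, 962 and 1898. Kif1a, a kinesin of synaptic vesicle transport, had 153 reads in wildtype, 56 in DAXX-/- and 499 in ATRX-/-.

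Repeat reads were more frequent in ATRX-/-, at 109362 reads against 99030 in wildtype, and families lay on both sides of 0. IAP retroviruses had 3520 reads in wildtype, 9324 in DAXX-/- and 8061 in ATRX-/-, a log2 fold of 1.26 (1.21 to 1.32). Their internal parts gave 1.31 (1.25 to 1.37) and their long terminal repeats 0.77 (0.54 to 1.01). Of 60 consensus sequences with at least 50 reads in either library, 3 were called higher (5%) and 0 lower (0%), and all 3 were IAP sequences. RLTR1IAP_MM had 17, 158 and 107 reads, IAPEZI had 1614, 4862 and 4151, and IAPLTR1a_I had 1395, 3753 and 3263. ETn and MusD elements, which took 61.9% of repeat reads in wildtype and 71.3% in ATRX-/-, gave 0.41 (0.40 to 0.43).

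Other retroviral families gave lower values than IAP. Elements like murine leukaemia virus (MLV) had 763 reads in wildtype and 760 in ATRX-/-, at 0.06 (-0.08 to 0.21), while DAXX-/- had 2062, at 1.84 (1.72 to 1.97). MERVL, the retrovirus of the 2-cell embryo, with its long terminal repeat MT2, went from 2297 to 1434 reads, at -0.61 (-0.71 to -0.52). MaLR elements were at -0.39 (-0.49 to -0.29). None of these families passed the 2-fold limit.

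LINE-1 elements, the autonomous non-viral retrotransposons, had 26352 reads in wildtype, 25082 in DAXX-/- and 17653 in ATRX-/-. The log2 fold was -0.51 (-0.54 to -0.48) in ATRX-/-, which stayed inside 2-fold. In DAXX-/-, the smaller library, it was 0.34 (0.31 to 0.36). The young subfamilies L1MdTf and L1MdA gave -0.58 and -0.64, whereas L1MdGf gave -0.02 (-0.09 to 0.04). B2 elements, short retrotransposons that use the LINE-1 machinery, were at -0.81 (-0.98 to -0.65). Satellites went from 198 to 120 reads, at -0.65 (-0.99 to -0.32), and the telomere repeat had 0 reads in all libraries. Both are often transcribed without a poly(A) tail, which these libraries do not cover. A read from a repeat inside a longer transcript counts as a repeat read, and how reads with several positions were placed is not given in the sources used here.

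**Figure D5:**
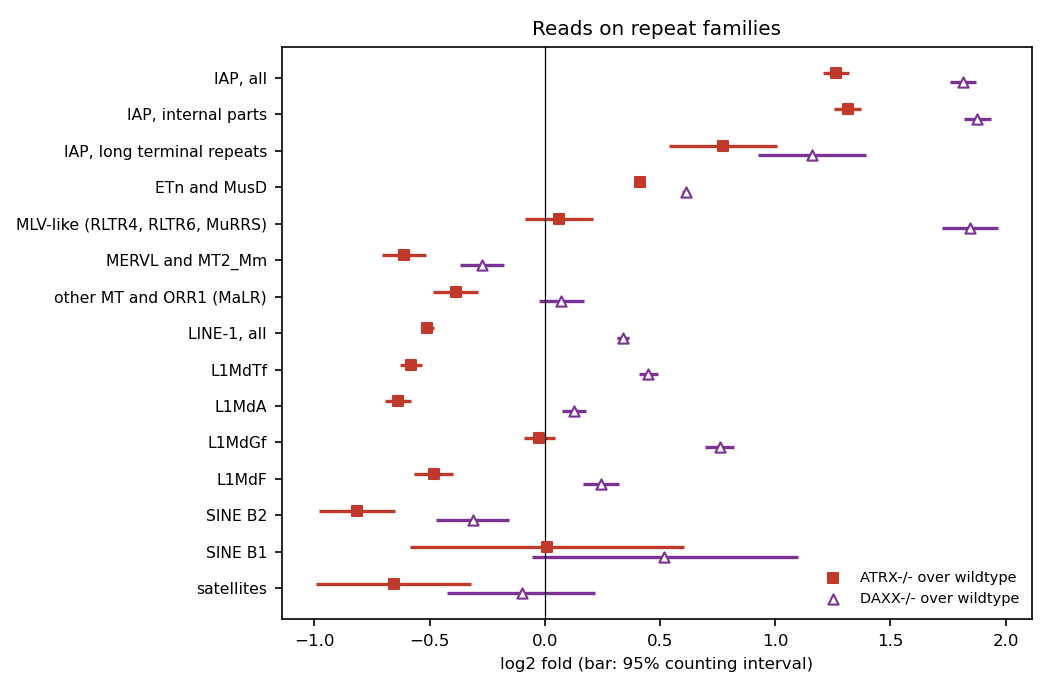
Squares are log2 folds of ATRX-/- over wildtype and open triangles those of DAXX-/- over the same wildtype library, with bars for the 95% counting interval. IAP is to the right of 0 in both, MLV-like elements in DAXX-/- only, and LINE-1 is at -0.51 in ATRX-/- and 0.34 in DAXX-/-.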

How the data were processed

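One table of read counts per library was used as deposited, not normalised, in the layout of a SAMtools idxstats listing: a reference sequence, its length and its aligned reads. Bowtie 1.1.2, SAMtools and build GRCm38.p4 are named per the submitters' processing notes. Alignment settings, strand, annotation release and the placement of reads with several positions are not given in the sources used here, so reads of a gene and of its antisense partner cannot be told apart. Aligning to transcripts leaves out intronic reads.

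Counts were summed by symbol and scaled by TMM factors from edgeR 4.0.16 in R 4.3.3, fitted to all 3 libraries together (wildtype 1.04, DAXX-/- 0.973, ATRX-/- 0.990). With 1 library a genotype there were 0 residual degrees of freedom. The Clopper-Pearson interval of the fold (SciPy 1.17.1) was tested on simulated data, and a count of 0 was set at 3 reads in that library for a bound. List medians use a prior count of 1, and setting genes with 0 reads at their bound changed none of them. Gene positions are from GENCODE M21 (GRCm38).

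Named genes were Atrx and Daxx, the 25 higher and 25 lower genes whose interval ended farthest from 0 on its inner side (predicted genes left out), and in each of 69 lists the called members, up to 8 in each direction, with the 3 most-read members where fewer than 3 were called. The report describes a selection of the lists. Other members, uncalled ones above all, are named for their role or value and were chosen after their values were seen. The members and lists were chosen with earlier results of these data known. Alternatives were other scalings (DESeq2 1.42.0 size factors among them), filters, limits, a transcript per gene, thinning, and, added after seeing the data, leaving out chromosome 11, subtracting chromosome medians, and, for neighbouring genes, keeping 1 symbol a gene identifier or leaving out near-identical copies.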

Additional observations from a re-analysis of the deposited data

Results flagged for a closer look

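In 10 genes called in ATRX-/- and in 4 results on LINE-1, the counting intervals of ATRX-/- and DAXX-/- against the shared wildtype library lay on opposite sides of no change. Each genotype has 1 library, and the difference was not tested. Nkx6-3, a homeobox gene of the stomach, had 218 reads in wildtype, 63 in ATRX-/- and 399 in DAXX-/-. Its log2 folds were -1.72 and 1.28, and it was the gene called in both knockouts in opposite directions. Genes higher in ATRX-/- and below wildtype in DAXX-/- were Egr1, with log2 folds of 1.42 and -1.08, Kif1a with 1.77 and -1.04, Clic6 with 1.805 and -1.40, and Plk2 with 1.27 and -0.43. Genes lower in ATRX-/- and above wildtype in DAXX-/- were Ttn, with -2.53 and 0.91, Enpp3 with -2.22 and 0.69, Il3ra with -2.09 and 0.63, Chac1 with -2.01 and 0.42, and Lgals9 with -1.77 and 0.78. LINE-1 elements as a whole were at -0.51 in ATRX-/- and 0.34 in DAXX-/-. Among their subfamilies L1MdTf was at -0.58 and 0.45, L1MdA at -0.64 and 0.13, and L1MdF at -0.48 and 0.24.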

How the results depend on the processing

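Each genotype has 1 library, so no replicate could be left out. No paired analysis was possible because no group has a second sample. The counts of called genes followed the limit on fold: 336 higher and 364 lower at 1.5-fold, and 31 and 63 at 3-fold. At a minimum of 5 CPM 88 genes were lower, because fewer genes were tested. All other scalings, the most-read transcript, thinning, the 99% interval, no filter, leaving out chromosome 11 and subtracting chromosome medians gave 71 to 97 higher and 112 to 172 lower. IAP was at 1.19 with total counts and 1.05 as a share of repeat reads, and LINE-1 at -0.58 and -0.72. Within 500 kb, 20.7% of higher and 25.7% of lower genes had a neighbour called the same way, against 6.71% and 9.26% of all tested genes. Of 98 named genes tested, Apoe and Cdkn1c were not called with total counts, Apoe, Cdkn1c, Tap1 and Dab2 not with the most-read transcript, and Apoe, Krt19 and Epcam not with chromosome medians subtracted. The 99% interval lost 12: Sema3c, Nupr1, Apoe, Cpt1b, Cdkn1c, Slc25a31, Usp29, Tlr3, Tap1, Dab2, Krt19 and Acta2. The 3-fold limit lost 36. None of the called ones reversed under any setting run. This was largely set by the rule, since their whole interval lay beyond 2-fold and scalings shifted folds by 0.07 or less. The 1.5-fold limit and no filter could not lose a called gene, and thinning changed little because the 2 depths were near equal. List medians changed sign in 17 lists, all with medians near 0 except that of the ancestral pseudoautosomal genes. Total counts shift all folds by -0.07. The promoter comparison among genes with at least 50 reads over both libraries was also treated as void. Windows there matched 66.7% of higher, 77.8% of lower and 79.5% of all tested genes. Depth limits genes under 2 CPM most, where 45.4% lay inside 1.5-fold, the lowest share of any level.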
